A study of Mus musculus with 6 samples.

Results

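The 3 superoxide dismutase genes Sod1, Sod2 and Sod3 and the catalase gene Cat were described in olfactory epithelium of Harlequin mutant mice and of littermate controls. Members were the probe sets to which the platform annotation gives exactly 1 of these 4 symbols. There were 13 such probe sets among 45037, with 5 for Sod1, 4 for Sod2, 2 for Sod3 and 2 for Cat. The rule itself uses no measured value, but the 4 genes were chosen with earlier results of these data known.

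Superoxide dismutases turn the superoxide radical into hydrogen peroxide and oxygen. Sod1 encodes the copper and zinc enzyme of the cytosol, which is also found in the mitochondrial intermembrane space, Sod2 the manganese enzyme of the mitochondrial matrix, and Sod3 the secreted copper and zinc enzyme that binds the extracellular matrix. Catalase, a haem enzyme found mainly in peroxisomes, then breaks hydrogen peroxide down to water and oxygen. Superoxide leaks from the respiratory chain, and the lining of the nose also meets inhaled oxidants, which makes these enzymes a first place to look in a model of oxidative stress.

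Total RNA was taken from microdissected olfactory epithelium of 3 Harlequin males (genotype Hq/Y, B6CBACAw-J/A-Pdcd8-Hq/J line) and 3 littermate control males (genotype +/Y, B6CBACa line). All mice were 6 months old, came from a supplier at 13 weeks of age and gave 1 Affymetrix array each, and the labels name no treatment. Harlequin is a germline allele of the X-linked gene Aifm1 (formerly Pdcd8), present in every cell of the mutant, which encodes apoptosis-inducing factor, a mitochondrial flavoprotein needed for normal amounts of respiratory complex I. The comparison was meant as a first search for how oxidative stress leads to the loss of neurons. The labels call the controls littermates and yet give the genotypes different strain names, and whether their strain background differed was not tested.

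Across the series, the median signal of an array was 107.9 to 119.7, and the Gapdh probe sets at the 3' and 5' ends, whose ratio reflects RNA breakdown, gave ratios of 0.729 to 0.790 for mutants and 0.740 to 0.846 for controls. Aifm1 was at 335.4, 221.1 and 211.2 in Harlequin and at 1239.9, 1255.6 and 1128.2 in controls, so the mutated gene was lower in all 3 mutants (log2 difference -2.20, SE 0.18, limma adjusted p = 0.0214). Without the intensity trend in the fit, the Aifm1 difference was the same size but not called (adjusted p = 0.219), and it also lost its call without Harlequin 2 or any 1 control. The labelled tissue was borne out by the olfactory neuron marker Omp, at 15892 to 18822 over the 6 arrays, and the sustentacular cell marker Cyp2g1, at 16586 to 18072. Precision is limited by there being 3 arrays for each genotype, and a bulk sample cannot tell fewer cells of a type from less RNA per cell. The limma p-values rest on the spread between these 6 mice, in part borrowed from other probe sets of like brightness. The exact permutation p-values use only the values of the probe sets tested.

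None of the 13 dismutase and catalase probe sets passed the test between Harlequin and control epithelium. In limma fitted over all 45037 probe sets, 0 of the 13 had an adjusted p under 0.05, against 0.0133% of all probe sets, and the lowest adjusted p among them was 0.972. At an unadjusted p under 0.05 the count was also 0 of 13, against 5.04% of all probe sets, and the lowest unadjusted p was 0.146. The 3 Harlequin values overlapped the 3 control values at all 13 probe sets, where groups did not overlap at 9.96% of all probe sets. On average 5 probe sets were higher and 8 lower in Harlequin, with a median log2 difference of -0.013 beside -0.011 for all probe sets.

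**Figure D1:**
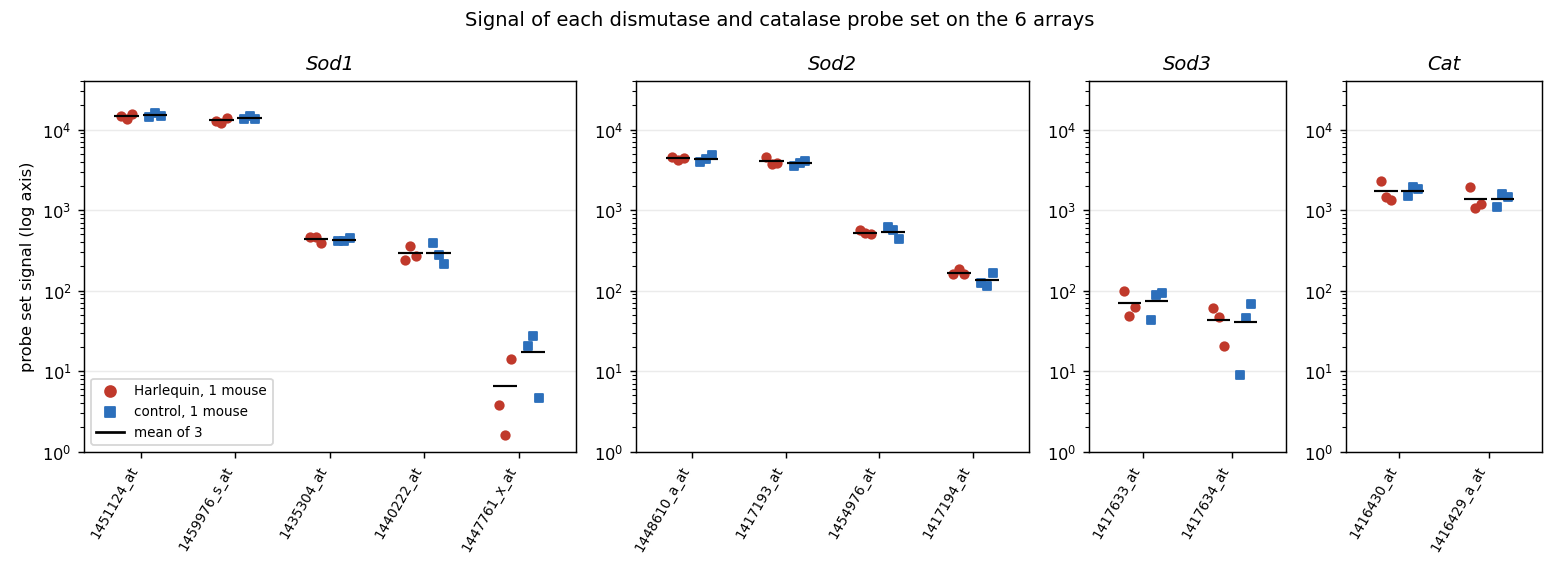
Signal of each of the 13 probe sets (x axis) on the 6 arrays, on a log axis (y), in 1 panel per gene. Red circles are Harlequin mice, blue squares are control mice and black bars are means of 3, and in every column the circles and squares overlap.

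Sod1, the cytosolic dismutase, was read by 2 bright and 3 dimmer probe sets. At its brightest probe set (1451124_at) the signal was 14832, 13612 and 15804 in Harlequin and 14392, 16115 and 14891 in controls, or 14750 ± 1098 and 15132 ± 886 (SD, n = 3). The highest and the lowest mouse differed by no more than 1.18-fold, and the genotypes were interleaved. The log2 difference was -0.038 (SE 0.086, limma adjusted p = 0.996), with a 95% interval from 0.850-fold to 1.12-fold of the control level. By exact permutation of the 6 arrays, two-sided, p was 0.7, and 3 against 3 arrays cannot go below 0.1.

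The second bright probe set of Sod1 (1459976_s_at, whose suffix marks a design that can also match other transcripts) was at 12796, 12046 and 14092 in Harlequin and at 13463, 14727 and 13580 in controls. Harlequin 3 lay above controls 1 and 3 and the other mutants lay below all controls, for a log2 difference of -0.10 (SE 0.086, adjusted p = 0.976). Both bright probe sets ranked the mice much alike, with Pearson r = 0.917 over the 6 arrays (exact permutation p = 0.0153, Benjamini-Hochberg adjusted over 24 pairs 0.183; Spearman rho = 0.943, exact p = 0.0167). Without the 2 arrays farthest from the median of the brightest probe set, r was 0.621. Here and below, the farthest arrays are those of 1 probe set of a pair.

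Of the dimmer Sod1 probe sets, 2 did not follow the bright ones across mice. Probe set 1435304_at gave 393.2 to 469 in Harlequin and 417.9 to 454.6 in controls (log2 difference 0.029, SE 0.13) and ran against the brightest one (r = -0.696, exact permutation p = 0.136, adjusted 0.297; rho = -0.771, exact p = 0.103; r = -0.541 without the 2 farthest arrays). Probe set 1440222_at gave 242.8, 360.2 and 265.3 in Harlequin and 394.9, 280.4 and 214.8 in controls, a 1.84-fold span between mice with almost equal group means (log2 difference -0.013, SE 0.24). The largest difference of any member, -0.54 (SE 0.34, 95% interval -1.31 to 0.23), was at the faintest probe set, 1447761_x_at. It was -1.39 with a pseudocount of 1, -0.20 with 64, -0.85 without control 3 and -0.32 without control 2. Its values were 3.8, 1.6 and 14.3 in Harlequin and 20.3, 27.2 and 4.7 in controls. These lie near the lowest signals of an array, and the probe set was below the 40th percentile of brightness, a signal of 61.1, which served here to mark dim probe sets.

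Sod2, the dismutase of the mitochondrial matrix, where complex I releases much of its superoxide, had group means that were nearly equal. Its brightest probe set (1448610_a_at) gave 4564, 4166.8 and 4420.1 in Harlequin and 4003.3, 4293.2 and 4787.7 in controls, or 4384 ± 201 and 4361 ± 397 (SD, n = 3). Both the lowest and the highest mouse were controls. The log2 difference was 0.010 (SE 0.091, adjusted p = 0.999), an interval of 0.872-fold to 1.16-fold.

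The second Sod2 probe set (1417193_at) was at 4599.4, 3715.8 and 3843.8 in Harlequin and at 3540.3, 3841.6 and 4032.3 in controls (log2 difference 0.086, SE 0.10), with Harlequin 1 the highest. Probe set 1454976_at gave 500.9 to 560.3 in Harlequin and 442 to 617.3 in controls, a difference of -0.027 (SE 0.15). The largest positive difference of any member was at the dimmest Sod2 probe set, 1417194_at. There Harlequin mice had 160.4, 183.4 and 159.5 and controls 125.2, 114.3 and 164.1, so 2 controls lay below every mutant and control 3 lay among them. The log2 difference was 0.30 (SE 0.20, 95% interval -0.17 to 0.77, adjusted p = 0.972; exact permutation p = 0.3).

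The 4 Sod2 probe sets did not share 1 pattern over the mice. The 2 brightest rose and fell together (r = 0.732, exact permutation p = 0.0958, adjusted 0.23; rho = 0.943, exact p = 0.0167; r = 0.865 without the 2 farthest arrays). The brightest and 1454976_at ran opposite (r = -0.747, exact permutation p = 0.0917, adjusted 0.23), with rho = -0.600 (exact permutation p = 0.242). Without the 2 farthest arrays r was 0.353, but too few arrays remain to show whether the relation rested on those 2. Over the 18 pairs of probe sets of the same gene, r was above 0 in 9, and 0 of the 24 pairs compared in all passed after adjustment (lowest adjusted p = 0.183).

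Sod3, the extracellular dismutase, gave low signals, and its data bound a change only loosely. Its brighter probe set (1417633_at) was at 98.6, 48.4 and 61.7 in Harlequin and at 42.8, 87.1 and 93.1 in controls, or 69.6 ± 26.0 and 74.3 ± 27.5 (SD, n = 3). Each genotype thus held both high and low mice, and the highest mouse was 2.30-fold above the lowest. The log2 difference was -0.069 (SE 0.34, adjusted p = 0.998), and its interval ran from 0.556-fold to 1.63-fold. The other probe set (1417634_at), below the 40th percentile, gave 60.2, 47.7 and 20.5 in Harlequin and 8.9, 45.5 and 67.6 in controls, a difference of 0.16 (SE 0.48, 95% interval -0.95 to 1.26). Between both Sod3 probe sets r was 0.761 over the 6 arrays (exact permutation p = 0.0833, adjusted 0.23). Spearman rho was 0.771 (exact permutation p = 0.103), and r was 0.970 without the 2 farthest arrays.

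Catalase, the peroxisomal enzyme that removes hydrogen peroxide, was the member that varied most between mice for its brightness, and that variation crossed the genotypes. Its brighter probe set (1416430_at) was at 2309.4, 1455.6 and 1340.3 in Harlequin and at 1475.2, 1906.5 and 1809.7 in controls, or 1702 ± 529 and 1731 ± 226 (SD, n = 3). Harlequin 1 was the highest of all 6 mice and Harlequin 3 the lowest. The log2 difference was -0.058 (SE 0.20, adjusted p = 0.996), with an interval from 0.700-fold to 1.32-fold. The second probe set (1416429_a_at) gave 1911.9, 1048.2 and 1204.1 in Harlequin and 1076.2, 1585.5 and 1437 in controls (log2 difference -0.0073, SE 0.23). Both Cat probe sets agreed on the 3 high mice, which were Harlequin 1 and controls 2 and 3 (r = 0.937, exact permutation p = 0.0125, adjusted 0.183; rho = 0.829, exact p = 0.0583; r = 0.999 without the 2 farthest arrays).

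**Figure D2:**
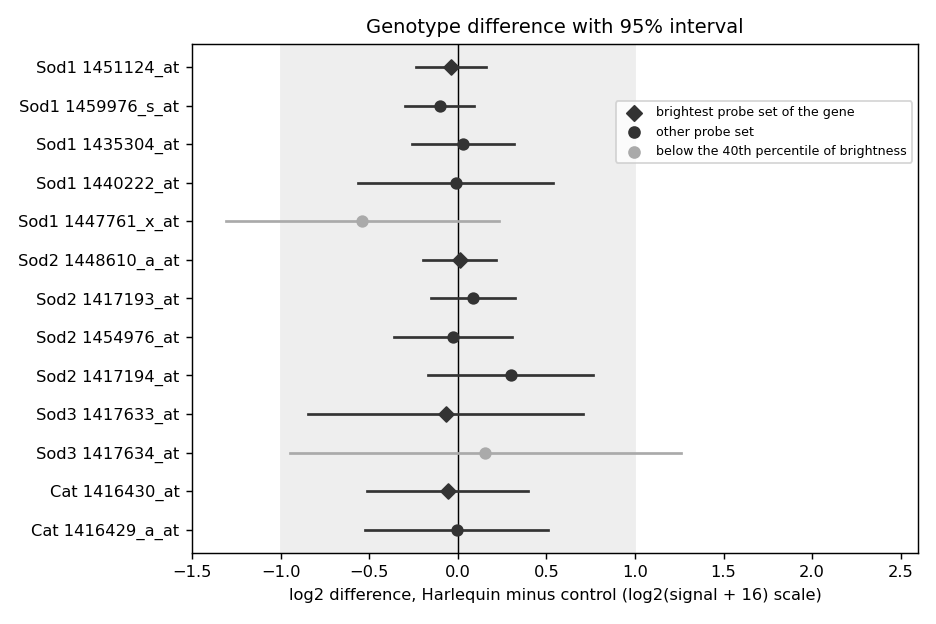
Log2 difference between Harlequin and control (x axis) for each probe set (y axis), with the 95% interval of the limma fit as a line. Diamonds mark the brightest probe set of a gene and grey marks the 2 dim probe sets, and the shaded band spans a doubling or halving. All 13 intervals include 0, and those of the 11 probe sets above the 40th percentile stay inside the band. The intervals rest in part on spread borrowed from other probe sets, and the pseudocount shrinks the changes of dim ones.

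In the limma fit, and on the log2 scale with its pseudocount, the 11 member probe sets above the 40th percentile had intervals that stayed within a log2 difference of 1 in either direction. These intervals are those of single probe sets and are not adjusted for the number of members. The fit pulls the SE of a probe set toward that of others of like brightness. Both Cat probe sets and Sod3 1417633_at had more spread than most of those. The pseudocount also shrinks the change that a dim probe set such as Sod3 1417633_at shows. For Sod3 1417633_at the within-genotype SD was 0.46, beside a median of 0.32 for probe sets of like brightness. An interval from that SD alone would pass the lower end of the range, so its place inside depends on the borrowed spread. What the pseudocount does to that interval was not tested.

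The members differed in how far mice of the same genotype lay apart. For Cat the within-genotype SD was 0.33 and 0.38 on the log2 scale at its 2 probe sets, where the median of the 1000 probe sets nearest in brightness was 0.14 in both cases. Of those neighbours, 92.8% and 95.4% had a smaller SD. Both bright Sod1 probe sets, with SDs of 0.097 and 0.095, had more spread than 59.6% and 57.5% of the probe sets near them, and the 2 brightest Sod2 probe sets more than 38.5% and 57.3%. For Sod3 the shares were 76.9% and 91.4%. The dimmer Sod1 and Sod2 probe sets ran from 12.2% for Sod1 1435304_at to 85.6% for Sod1 1440222_at. These shares describe 6 arrays and carry no test.

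**Figure D3:**
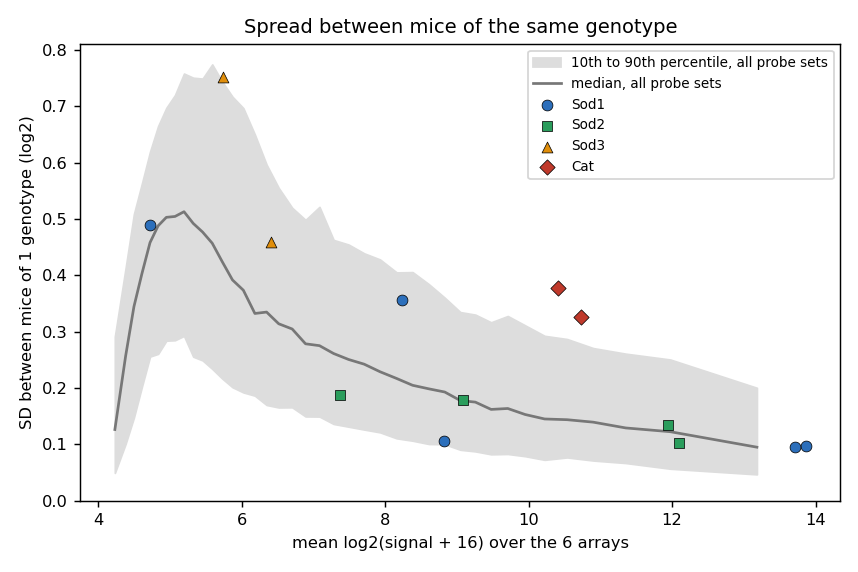
Standard deviation of log2 signal between mice of the same genotype (y axis) against mean log2(signal + 16) (x axis) for the 13 probe sets, coloured by gene. The grey line is the median of all probe sets and the grey band their 10th to 90th percentiles. Both Cat probe sets, at 0.33 and 0.38, and the dim Sod3 1417634_at, at 0.75, lie above the band. The bright Sod1 and Sod2 probe sets lie near the median.

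Whether the balance between members shifted was tested with the difference in log2 signal between the brightest probe sets of 2 genes within an array, from which the scaling of the array cancels apart from the pseudocount. Cat minus Sod2, which sets the peroxide-removing enzyme against the matrix dismutase, was -0.98, -1.51 and -1.71 in Harlequin and -1.43, -1.16 and -1.40 in controls. The genotype difference was -0.068 (exact permutation p = 0.8). Cat minus Sod1 differed by -0.020 and Sod2 minus Sod1 by 0.048 between the genotypes. Over all 6 pairs the difference ran from -0.079 for Sod3 minus Sod2 to 0.048, and every exact permutation p was 0.7 or more, or 1 after adjustment over the 6 pairs. The values compare genotypes for a given pair of probe sets and do not rank the amounts of the enzymes.

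Cat and Sod3 were high in the same mice at their brightest probe sets. At the dimmer Sod3 probe set, 1417634_at, Harlequin 2 (47.7) lay above control 2 (45.5), unlike Cat. For the brightest probe sets of Cat and Sod3 r was 0.836 over the 6 arrays (exact permutation p = 0.0639, adjusted 0.23). Spearman rho was 0.714 (exact permutation p = 0.136, adjusted 0.327), and r was 0.940 without the 2 arrays farthest from the median of Sod3. Sod2 and Sod3 gave r = 0.836 as well (exact permutation p = 0.0458, adjusted 0.23), with rho = 0.886 (exact permutation p = 0.0333). Their r was 0.716 without the 2 arrays farthest from the median of Sod2. For Sod1, r was 0.198 with Cat (exact permutation p = 0.688; rho = 0.200, exact p = 0.714; r = -0.369 without the 2 farthest arrays). With Sod2 it was 0.322 (exact p = 0.528; rho = 0.429, exact p = 0.419; 0.357 without the 2 farthest). With Sod3 it was 0.523 (exact p = 0.299; rho = 0.429, exact p = 0.419; 0.151 without the 2 farthest). None of the correlations between members passed after adjustment, and 3 arrays per genotype are too few for a value within a genotype.

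Markers of respiratory epithelium, the ciliated lining that borders the olfactory sheet in the nose, moved with Cat in part. The mean log2 deviation of 6 ciliated cell markers, all 6 of them measured, was 0.31, -0.15 and -0.27 in Harlequin and -0.12, -0.06 and 0.29 in controls. Control 2, a high mouse for Cat, was thus not high for this list. Hydin had the largest genotype difference of the list (-0.34, SE 0.24, adjusted p = 0.972). Their summed signal spanned 3558 to 5120 among mutants and 4190 to 4973 among controls, and none of the 6 was at 0. As a description over 6 arrays that share their scaling, the list followed Cat with r = 0.85, Sod3 with 0.76, Sod2 with 0.71 and Sod1 with -0.06. Among single genes chosen after their values were seen, the ciliary dynein chain Dnaic1 followed Cat with r = 0.973 and the basal cell keratin Krt5 with 0.972. The other ciliated markers had r with Cat from 0.307 for Tekt2 to 0.856 for Foxj1, with Hydin at 0.596. The basal cell list that holds Krt5, 5 measured of 6 listed, did not follow Cat as a whole (r = -0.11), with Krt14 at 0.780, Trp63 at 0.60, Neurod1 at -0.581 and Neurog1 at -0.749. The epithelial glutathione peroxidase Gpx2 gave 4187.8, 979.3 and 1085 in Harlequin and 920.6, 1978 and 1738.1 in controls (r = 0.959 with Cat). Harlequin 1 and controls 2 and 3 were again the 3 high mice for Gpx2. Markers of mature olfactory neurons, 6 measured of 9 listed, ran the other way (r = -0.80 with Cat and -0.91 with Sod3) over a narrow range of -0.05 to 0.06, with sums of 92216 to 96315 in Harlequin and 90946 to 97824 in controls. The part of tissue composition in the spread of Cat and Sod3 was not tested.

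**Figure D4:**
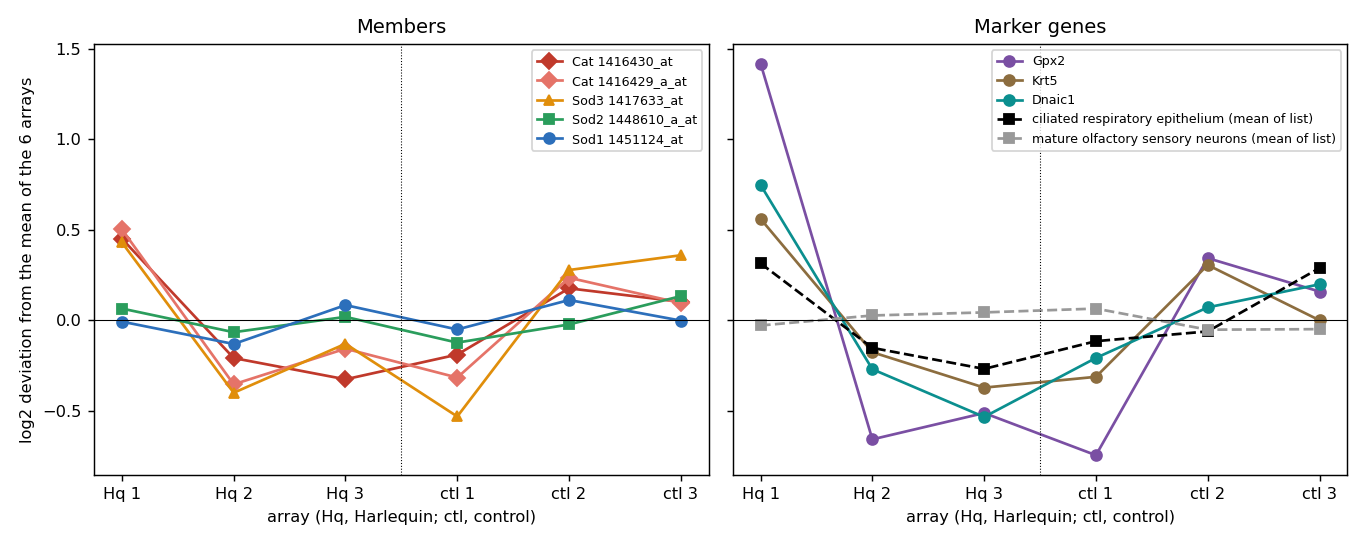
Log2 deviation of each array from the mean of the 6 arrays (y axis) for the brightest member probe sets and the second Cat probe set (left) and for 3 marker genes and 2 marker lists (right). Arrays are on the x axis, Harlequin left of the dotted line, and lines only join the points of 1 series. Both Cat probe sets, Sod3 and Gpx2 are high in Harlequin 1 and in controls 2 and 3, while Sod1 and Sod2 stay near 0.

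Markers of other cell types known to carry these enzymes were also read. Red cells are rich in catalase, and 7 of 10 erythroid markers were measured, with all 7 higher in Harlequin (median log2 difference 0.83, largest for the haem synthesis enzyme Alas2 at 1.52, SE 0.28). In limma 0 of the 7 were called and 5 had an unadjusted p under 0.05, where 0.0303% and 4.64% of all genes did. Their sums were 3796 to 5003 in Harlequin and 1028 to 2861 in controls, with none at 0, and Cat did not follow them (r = -0.20). Neutrophil markers, 8 of 8 measured, were all higher in Harlequin, where 50.0% of all genes were. Their sums were 32318 to 50977 against 13680 to 41158, and r was 0.34 with Sod2, 0.09 with Cat and -0.68 with Sod1. Chil3 was the only one of the 8 called (log2 difference 2.20, SE 0.22, limma adjusted p = 0.0495), where 0.0303% of all genes were. Without an intensity trend or with a block for the replicate number, no probe set was called. Chil3 did not follow the rest of the list among controls. Control 2 was the highest control for Chil3, at 581.9, and the lowest for every other marker of the list, with S100a8 at 3166.5. Macrophage markers, 8 of 8 measured and 5 higher (largest difference 0.42, SE 0.18, for Tyrobp), had sums of 4818 to 5505 against 4018 to 5035. Their r was -0.68 with Sod1, 0.29 with Sod2 and -0.19 with Cat. Smooth muscle and vessel markers, whose cells secrete Sod3, were lower in Harlequin on average in 8 of 8 (median -0.23, largest for Myh11 at -0.65, SE 0.24). In limma 0 of the 8 were called and 1 had an unadjusted p under 0.05, against the same shares of all genes, with sums of 7730 to 10514 against 8932 to 11956 and r = 0.15 with Sod3. Fibroblast markers, 8 of 8 measured, were all lower on average (median -0.42, largest for Col1a1 at -0.86, SE 0.56). In limma 0 were called and 2 had an unadjusted p under 0.05, against the same shares. Sums were 19980 to 38623 against 26097 to 40734, with r = -0.57 with Sod3 and -0.74 with Sod2.

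By the rule for likeness, the 3 genes with the highest r to each member over the 6 arrays were taken from 13215 genes above the 40th percentile. For Cat these were the homeobox gene Irx5 (r = 0.996), the aldehyde dehydrogenase Aldh7a1 (0.994) and the proton pump subunit Tcirg1 (0.992). For Sod3 they were the aldehyde oxidase Aox1 (0.995), Plcxd2 (0.989) and Ankub1 (0.978). Sod2 was matched by the prostaglandin E synthase Ptges (0.990), Hint3 (0.989) and the p53-induced Trp53inp1 (0.987), and Sod1 by Lgi4 (0.992), the synaptic protein Unc13b (0.983) and 4933406J09Rik (0.982). With 6 arrays such values are common, since 69 genes exceeded r = 0.95 with Cat, 43 with Sod3, 46 with Sod2 and 23 with Sod1. Irx5, at 329.6, 187 and 166.5 in Harlequin and 186.1, 266.9 and 258 in controls, had the same 3 high mice as Cat.

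The genes that supply, oppose or regulate these enzymes were read from 7 lists. Over the brightest probe sets above the 40th percentile, 0 genes of any of the 7 lists had an adjusted p under 0.05, against 0.0303% of all 13219 genes. The lowest adjusted p in each list was 0.972. The lists held 9, 9, 12, 5, 11, 11 and 6 measured genes. Of these, 5 genes in all had an unadjusted p under 0.05, where 4.64% of all genes did. For all genes the median log2 difference was 5.2e-05, with 50.0% higher in Harlequin.

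Metal supply showed no call. Of 10 genes that load or carry copper and manganese, 9 were measured, 3 higher and 6 lower (median -0.032). Ccs, the chaperone that inserts copper into Sod1, was at 1531, 1436.6 and 1603.3 in Harlequin and at 1531.8, 1492.1 and 1578.7 in controls (log2 difference -0.011, SE 0.087). The 2 genes of the list with the smallest p were the manganese and zinc importer Slc39a8 (log2 difference -0.35, SE 0.14, unadjusted p = 0.0388) and the copper chaperone Atox1 (0.21, SE 0.10, unadjusted p = 0.0712), both at an adjusted p of 0.972. With the mean over probe sets these were -0.16 and 0.055, and Atox1 was at 0.11 without control 3.

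Enzymes and subunits that make superoxide or peroxide had the largest median of the 7 lists. Of 16 listed genes, 9 were measured, 7 higher and 2 lower (median log2 difference 0.36), 1 at an unadjusted p under 0.05, where 4.64% of all genes were. Cyba, the membrane subunit shared by several NADPH oxidases, was at 955.7, 823.4 and 641.8 in Harlequin and at 605.1, 484.7 and 615.9 in controls (log2 difference 0.48, SE 0.17, unadjusted p = 0.0187, adjusted p = 0.972). All 3 mutants were above all 3 controls, a pattern 10.4% of genes showed in either direction. The phagocyte oxidase subunit Ncf4 differed by 0.66 (SE 0.39), or by 0.27 without control 2 and 1.12 without control 3, and Cybb, the catalytic subunit of that oxidase, by 0.49 (SE 0.31), with overlap in both. The list median was 0.21 without Harlequin 1, 0.16 without control 2 and 0.65 without control 3. The subunits Cybb, Ncf1, Ncf4 and Rac2 belong mainly to neutrophils and macrophages, of whose markers 8 of 8 and 5 of 8 were higher on average, and the part of those cells in this list was not tested.

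The peroxisome lists, the compartment of catalase, had medians just under 0 whose sign turned with the arrays left out. Of 15 genes for biogenesis and import, 12 were measured, 6 higher and 6 lower (median -0.029). Pex5, the receptor that carries catalase into the organelle, differed by 0.018 (SE 0.14), while Pex10, a ring finger protein of receptor recycling, was at 205.7, 176.2 and 140.5 in Harlequin and at 285, 279.6 and 219.7 in controls (log2 difference -0.55, SE 0.20, unadjusted p = 0.0222, adjusted p = 0.972). Pex2 differed by -0.17 (SE 0.087), or by -0.0057 with the mean over its probe sets. With 1 array left out the list median ran from -0.080, without Harlequin 2, to 0.030, without Harlequin 1. Of 10 oxidases that make hydrogen peroxide in peroxisomes, 5 were measured, 2 higher and 3 lower (median -0.022, or -0.23 without Harlequin 1 and 0.096 without Harlequin 3). Urate oxidase Uox was at -0.40 (SE 0.20), or -0.23 without control 3 and -0.24 without Harlequin 3, and Acox3 was at 0.29 (SE 0.18). Acox2, a branched-chain acyl-CoA oxidase, had the same high mice as Cat, at 1098.6, 706.1 and 714.3 in Harlequin and 628.7, 984.3 and 938.4 in controls, and was named after its values were seen.

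The other enzymes that remove hydrogen peroxide, glutathione peroxidases and peroxiredoxins, had 11 of 15 listed genes measured, 7 higher and 4 lower (median 0.082, or -0.032 without control 1). Gpx7 (-0.38, SE 0.20) and Gpx1 (0.11, SE 0.097) had the smallest p, with Gpx1 at 0.035 without control 1 and 0.20 without control 3. A second probe set of the red cell peroxiredoxin Prdx2 (1430979_a_at) gave 968.5, 1240 and 1078.9 in Harlequin and 154.1, 797 and 167.5 in controls. It did not pass over all arrays (log2 difference 1.91, limma adjusted p = 0.866) but did without control replicate 2 (2.65, SE 0.15, adjusted p = 0.0197), and the brightest Prdx2 probe set differed by 0.12 (SE 0.11).

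Regulators of the dismutase and catalase genes had 11 of 12 members measured, 5 higher and 6 lower (median -0.014). The forkhead factors Foxo3 and Foxo1, which act on the Sod2 and Cat genes, had the smallest p in this list. Foxo3 was at 2201.3, 2301.9 and 2168.4 in Harlequin and at 1901.2, 1654.3 and 2022.1 in controls (log2 difference 0.26, SE 0.097, unadjusted p = 0.0267). Foxo1 was at 842.5, 1034.9 and 1070.3 and at 1189.1, 1110.5 and 1202.6 (-0.25, SE 0.12, unadjusted p = 0.0585). Averaged over all its probe sets, Foxo1 differed by -0.027, and without Harlequin 1 its brightest probe set differed by -0.15. At the brightest probe sets of these 2 genes, of 11 measured, the genotypes did not overlap, a pattern 10.4% of all genes showed in either direction. Both had an adjusted p of 0.972. Nfe2l2, the stress-responsive factor NRF2, differed by 0.048 (SE 0.11). Targets of tumour necrosis factor and NF-kappaB, a pathway that induces Sod2 in many cells, had 6 of 10 members measured, 5 higher and 1 lower (median 0.23, or 0.35 without control 3). The adhesion molecules Icam1 (0.69, SE 0.23) and Vcam1 (0.82, SE 0.42, or 0.47 without control 1 and 1.36 without control 3) had the smallest p in this list, at an adjusted p of 0.972 each, and Sod2 itself differed by 0.010.

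**Figure D5:**
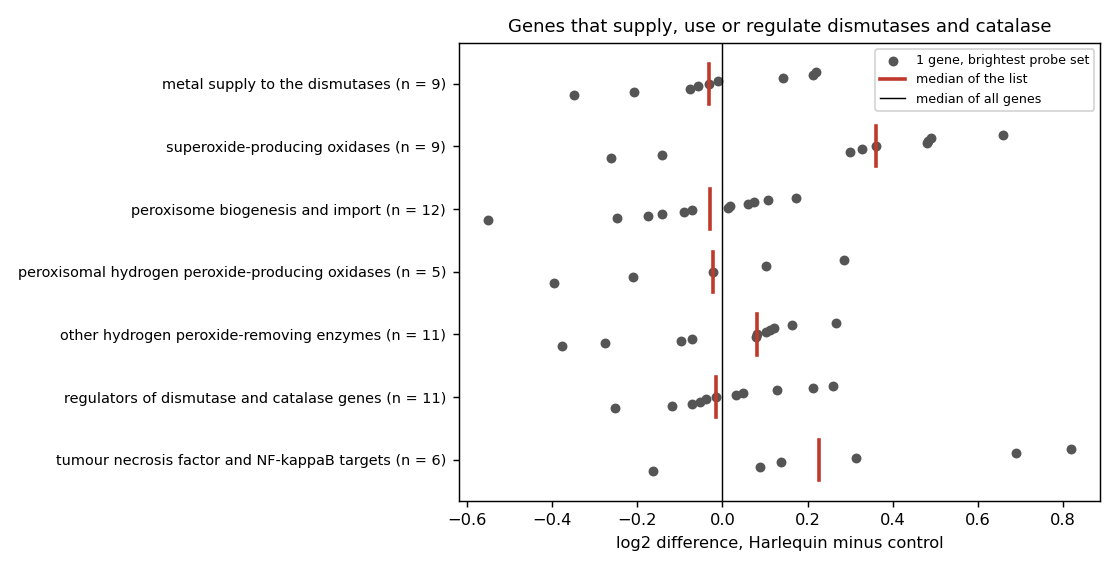
Log2 difference between Harlequin and control (x axis) of each measured gene in the 7 lists (y axis, n is the number measured), with the list median in red and the median of all genes in black. The superoxide-producing oxidases have the highest median, 0.36, and the medians for metal supply, peroxisome biogenesis and regulators are -0.03, -0.03 and -0.01. 0 of the genes shown passed the test over all probe sets.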

How the data were processed

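Each deposited column holds 1 linear intensity per probe set, which the authors scaled so that each array has the same trimmed mean of 500 after leaving out the lowest and highest 2%, as read from the values. RNA (3 µg) was labelled by the Affymetrix procedure, per the labels' protocols. The software that condensed probe cells is not given in the sources used here, and detection calls were not used. Groups and replicate numbers came from the titles, and the labels call the arrays biological replicates.

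The analysis used log2(value + 16), a scale on which a dim probe set shows less than its true change. The 64 control probe sets were left out, and 45037 were fitted together, without a filter, in limma 3.58.1 (R 4.3.3) with empirical Bayes moderation that follows intensity. P-values are two-sided with Benjamini-Hochberg adjustment, and an adjusted p under 0.05 is a call. Symbols came from the platform annotation, in which 34945 probe sets name 1 gene, 932 several and 9160 none. RefSeq changed 0 symbols. Each gene was represented by its brightest probe set, and lists count genes whose mean lies above the 40th percentile. Summaries used Python 3.11.15 with pandas 2.3.3 and matplotlib 3.10.9.

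Named were all member probe sets, Aifm1, the 2 genes of each pathway list with the smallest p, any called list gene, the marker with the largest difference in each marker list quoted, and the 3 genes most like each member. Ccs, Cybb, Pex5, Nfe2l2, Ncf1, Rac2, Prdx2, Acox2, Gpx2, Dnaic1, Tekt2, Foxj1 and the basal cell markers are list members named after their values were seen. The members and lists were chosen with earlier results of these data known. The alternatives were pseudocounts of 1 and 64, filters at the 40th and 60th percentiles, quantile normalization, median scaling, no intensity trend, robust moderation, array weights, 1 probe set per gene, the mean over probe sets, some probe set suffixes left out, a block for the replicate number, and leaving out 1 array at a time. Likeness and correlations were also computed under other pseudocounts and scalings, chosen after seeing the data. In 5 simulations of the Harlequin against control comparison, 200 of 45037 probe sets were changed, all of them above the 60th percentile of brightness. Of these, 85.1% of changes of log2 1 and 100% of changes of log2 2 were called, and 5.8% of calls were false. Both Sod3 probe sets lie below that percentile. With 200 true changes the adjustment is laxer than in the data, where 6 probe sets were called, so these rates do not hold for the members. In the data Alas2, at 1.52 (SE 0.28), was not called (limma adjusted p = 0.574).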

Additional observations from a re-analysis of the deposited data

How the results depend on the processing

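No member probe set was called under any of the 13 alternatives or without any 1 of the 6 arrays, and the sign of the differences often turned. It turned under median scaling for Sod1 1440222_at (0.016), Sod2 1454976_at (0.0029) and Cat 1416429_a_at (0.023), under quantile normalization for Sod1 1440222_at (0.0067), with the mean over probe sets for Sod3 (0.044) and with a pseudocount of 64 for Cat minus Sod3 (-0.0080). With 1 array left out the brightest probe sets ran from -0.089 to 0.018 for Sod1, -0.049 to 0.079 for Sod2, -0.35 to 0.12 for Sod3 and -0.30 to 0.091 for Cat. The others that turned were Sod1 1435304_at (-0.017 to 0.11) and 1440222_at (-0.21 to 0.20), Sod2 1417193_at (-0.0076 to 0.15) and 1454976_at (-0.16 to 0.075), Sod3 1417634_at (-0.35 to 0.52) and Cat 1416429_a_at (-0.26 to 0.17). The balance ran from -0.0073 to 0.13 for Sod2 minus Sod1, -0.28 to 0.14 for Sod3 minus Sod1, -0.25 to 0.18 for Cat minus Sod1, -0.30 to 0.069 for Sod3 minus Sod2, -0.28 to 0.088 for Cat minus Sod2 and -0.12 to 0.18 for Cat minus Sod3.

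Over all probe sets, 6 were called, against 0 without an intensity trend, 2 genes with the mean over probe sets and 0 with the replicate block, and 0 to 8 with 1 array left out. Pathway probe sets called ran from 0 to 1 there. Aifm1 kept its log2 difference of -2.20 without a trend (adjusted p = 0.219) and with the replicate block (adjusted p = 0.0722), but lost its call in both, and it ran from -2.40 to -2.08 with 1 array left out, losing its call without Harlequin replicate 2 or any 1 control. Same-numbered arrays deviated together with r of -0.169, -0.001 and 0.105, where arrays of unlike number ran from -0.249 to 0.281. With deviations taken from means of 3 arrays, this cannot settle whether the numbers pair the mice. They were used as names. With median scaling, chosen after seeing the data, likeness values under 0.95 were, for Sod1, 0.903 for Lgi4, 0.931 for Unc13b and 0.910 for 4933406J09Rik, for Sod2, 0.916 for Ptges, 0.922 for Hint3 and 0.852 for Trp53inp1, and for Cat, 0.876 for Aldh7a1. The correlation of Sod1 with Sod3 was 0.270 there. The cause of these changes was not tested. For the dim Sod3 probe sets the wide intervals limit what 3 arrays per genotype can show.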
